A study of Oryza sativa Indica Group with 12 samples.

Results

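The circadian clock genes of rice are described here in seedlings that were deprived of potassium and then resupplied with it. The members were 7 genes, CCA1, PRR73, PRR37, PRR95, GI, PRR1 and OsPCL1. They were taken by RefSeq symbol or synonym through the array's annotation, and for CCA1, PRR95 and OsPCL1 also by the loci LOC_Os08g06110, LOC_Os09g36220 and LOC_Os01g74020 of the study's category table. That table lists genes that the study found changed by potassium deprivation on these same arrays. All 7 had a probe set of their own, of 17905 genes that have one in the annotation. They hold 10 probe sets, since CCA1, PRR73 and PRR37 have a pair each. A gene's values come from its brightest probe set, by the mean of the 12 arrays, and the dimmer ones are given at the end of the gene results.

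The plant circadian clock is a loop of transcription factors that repress each other in turn, so that each of them peaks at its own hour and the loop takes about a day. CCA1 (also named LHY) peaks around dawn, the pseudo-response regulators PRR73, PRR37 and PRR95 follow during the day, and GI, PRR1 (the rice counterpart of TOC1 in Arabidopsis) and OsPCL1 (LUX) peak towards dusk. In rice the loop feeds into the measurement of day length and so into flowering time. The level of each of these genes in a harvest therefore depends on the hour at which it was made.

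The study hybridised 12 Affymetrix rice arrays, 3 for each of 4 conditions, with RNA from whole seedlings without their seeds. All seedlings were of IR64, an indica cultivar, and grew in hydroponic solution under 16 h light and 8 h dark. KR seedlings spent 5 days without potassium and then 6 h with 0.409 mM K2SO4 restored. KM seedlings spent the same 5 days at 0 mM, KP seedlings spent them at 0.409 mM, and 0h seedlings were those at the end of 5 days of normal growth, before the transfer. The 0h arrays carry a treatment tag that names the medium without potassium, against their title and source name, and were kept as 0h. The labels call the 3 arrays of a group biological replicates but do not say that they came from separate hydroponic cultures, so the p-values cover the spread between these arrays. The sources used here do not give the hour of harvest. If KR was collected 6 h after KM and KP, the resupply and 6 h of the day cannot be told apart in any comparison with KR. If KM and KP were collected at different hours, the hour and potassium cannot be told apart in KM against KP. A different hour at 0h likewise cannot be told apart from age.

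The values are log2 of the GCRMA signals that the authors deposited. The array medians were 2.79 to 2.83 in KR, 2.70 to 2.73 in KM, 2.71 to 2.72 in KP and 2.72 to 2.74 at 0h, and a value near these is called near background below. Changes are differences of group means from a limma fit over the 12 arrays, each with its standard error. A probe set was called at a Benjamini-Hochberg adjusted p under 0.05 over all 57258 probe sets tested and a change of at least 2-fold. The seedlings hold shoots and roots together, and a lower signal from fewer cells of a type cannot be told apart from less RNA per cell.

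**Figure D1:**
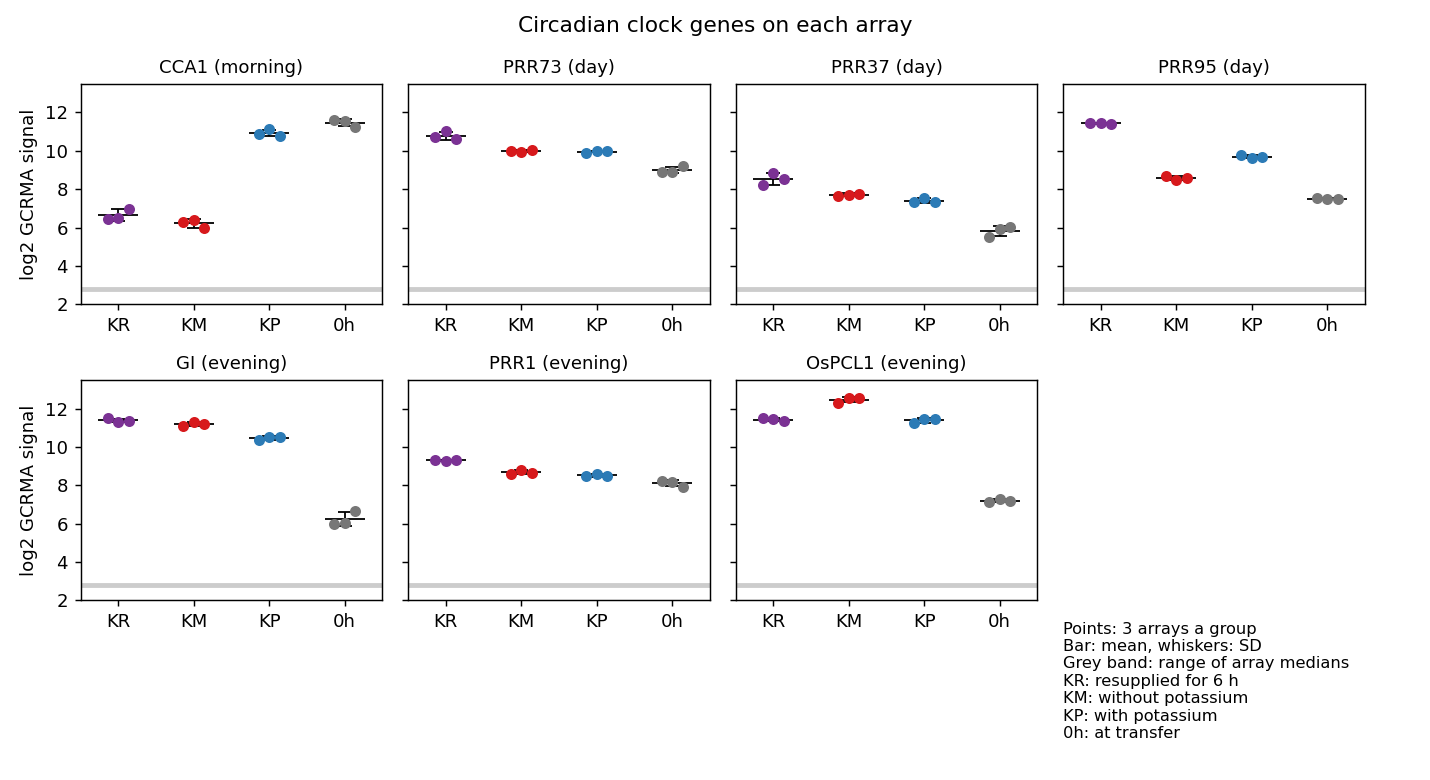
Log2 GCRMA signal (vertical axis) of the 7 clock genes on each of 3 arrays in KR, KM, KP and 0h. Points are arrays, the horizontal bar is the group mean, whiskers are the SD, and the grey band is the range of the array medians. CCA1 lies at 6.22 to 6.65 on average in KM and KR and at 10.94 to 11.47 in KP and 0h, and the other 6 genes are lowest at 0h.

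CCA1, a MYB-type transcription factor at the head of the morning part of the loop, divided the 4 conditions into a low and a high pair. Its log2 signals were 6.44, 6.51 and 6.99 in KR and 6.28, 6.42 and 5.98 in KM, against 10.89, 11.12 and 10.80 in KP and 11.59, 11.57 and 11.24 at 0h. No KR or KM array came within 3 log2 units of any KP or 0h array. CCA1 fell by 4.71 ± 0.18 on the log2 scale in KM against KP, a 26.2-fold difference (limma, adjusted p = 1.59e-06). That is the 13th lowest of 57258 changes in the comparison. After 6 h of resupply the gene averaged 6.65 ± 0.30 in KR and 6.22 ± 0.22 in KM (SD, n = 3 each). The change of 0.42 ± 0.18 did not pass the test (95% interval 0.03 to 0.82, adjusted p = 0.0755), although the 3 KR arrays all lay above the 3 KM arrays. KR seedlings stayed 19.5-fold below KP seedlings (change -4.29 ± 0.18, adjusted p = 5.33e-06). Measured as a share of the gap between KM and KP, the mean at 6 h had covered 9.01% of it.

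For KP against 0h, which sets seedlings kept 5 days longer on potassium against those of the transfer day, CCA1 did not pass the test. It averaged 10.94 ± 0.17 in KP and 11.47 ± 0.20 at 0h (SD, n = 3 each), a change of -0.53 ± 0.18 (adjusted p = 0.0544). Against 0h the KM mean was lower by 37.9-fold (change -5.24 ± 0.18, adjusted p = 9.10e-08). Within the low pair (KR and KM) and within the high pair (KP and 0h) the change thus did not pass the test. Between the pairs, KM against KP, KR against KP and KM against 0h did.

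PRR73 and PRR37, pseudo-response regulators of the day, shared an order of levels, with KR highest and 0h lowest. In Arabidopsis proteins of this family repress CCA1 and LHY, and in rice PRR37 (also known as Hd2 or DTH7) delays flowering under long days. PRR73 signals were 10.70, 11.03 and 10.60 in KR and 9.99, 9.92 and 10.02 in KM, against 9.91, 9.98 and 9.98 in KP and 8.92, 8.91 and 9.21 at 0h. The KM and KP arrays overlapped, and the change between them was 0.02 ± 0.11 (95% interval -0.23 to 0.27, adjusted p = 1). PRR37 signals were 8.21, 8.87 and 8.53 in KR and 7.62, 7.71 and 7.77 in KM, against 7.31, 7.54 and 7.32 in KP and 5.51, 5.92 and 6.03 at 0h. Its KM arrays lay just above its KP arrays, by 0.31 ± 0.17 on average, and this did not pass the test (95% interval -0.09 to 0.70, adjusted p = 0.451).

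Both genes stood higher in KR than in KM by less than 2-fold. The change was 0.80 ± 0.11 for PRR73 (adjusted p = 8.51e-04) and 0.84 ± 0.17 for PRR37 (adjusted p = 0.00536), so neither was called. Against KP, PRR37 was called higher in KR at 1.15 ± 0.17 (adjusted p = 0.00125), and PRR73 was at 0.82 ± 0.11 (adjusted p = 7.61e-04), short of the fold threshold. The PRR37 call rests on the second KR array, without which the change was 0.98. From the transfer day on, PRR37 was higher by 1.57 ± 0.17 in KP and by 1.88 ± 0.17 in KM than at 0h (adjusted p = 1.00e-04 and 2.97e-05). PRR73 was just under 2-fold in both, at 0.94 ± 0.11 and 0.97 ± 0.11, and passed the fold threshold in both when the third 0h array was left out (1.04 and 1.06).

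PRR95, another regulator of the day, was the only member called both lower in KM against KP and higher in KR against KM. Its signals were 11.46, 11.44 and 11.41 in KR and 8.70, 8.50 and 8.59 in KM, against 9.76, 9.60 and 9.69 in KP and 7.57, 7.48 and 7.48 at 0h. No array of any condition overlapped with another condition, and all 3 steps between neighbours in the order of levels passed the test. PRR95 fell by 1.09 ± 0.05 in KM against KP (adjusted p = 8.56e-06). In KR it rose by 2.84 ± 0.05 against KM, which is 7.17-fold (adjusted p = 9.73e-08), the 80th highest of 57258 changes. The KR mean thereby passed the KP mean by 1.75 ± 0.05, or 3.37-fold (adjusted p = 2.54e-06). Against 0h the gene was higher by 2.17 ± 0.05 in KP (adjusted p = 3.79e-08) and by 1.09 ± 0.05 in KM (adjusted p = 7.25e-07). All of these calls on PRR95 held with each of the 12 arrays left out in turn.

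GI, a large plant protein that acts towards dusk and controls the flowering gene Hd1 in rice, was lowest at 0h by a wide margin. Its signals were 11.49, 11.32 and 11.33 in KR and 11.11, 11.32 and 11.18 in KM, against 10.36, 10.52 and 10.52 in KP and 6.00, 6.03 and 6.66 at 0h. The third 0h array was the highest of its group, and all 3 were well below every other array. GI was 18.8-fold higher in KP than at 0h (change 4.23 ± 0.16, adjusted p = 2.39e-07) and 31.4-fold higher in KM than at 0h (change 4.97 ± 0.16, adjusted p = 6.97e-08). Between KM and KP the arrays did not overlap, but the change of 0.74 ± 0.16 was below 2-fold (1.67-fold, adjusted p = 0.0173) and was not called. KR and KM averaged 11.38 ± 0.09 and 11.20 ± 0.11 (SD, n = 3 each), and the change of 0.18 ± 0.16 did not pass the test (95% interval -0.18 to 0.53, adjusted p = 0.378). KR was above KP by 0.91 ± 0.16 (adjusted p = 0.00221), again under 2-fold.

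PRR1, whose Arabidopsis counterpart TOC1 represses CCA1 in the evening, had the narrowest range of the 7 genes, with group means that spanned 1.21 on the log2 scale. Its signals were 9.32, 9.29 and 9.30 in KR and 8.60, 8.80 and 8.65 in KM, against 8.46, 8.61 and 8.48 in KP and 8.21, 8.16 and 7.92 at 0h. The KR arrays lay above all others, by 0.62 ± 0.08 over KM (adjusted p = 6.12e-04) and by 0.79 ± 0.08 over KP (adjusted p = 2.31e-04). The KM and KP arrays overlapped (change 0.17 ± 0.08, 95% interval -0.01 to 0.35, adjusted p = 0.315). Against 0h, PRR1 was at 0.42 ± 0.08 in KP (adjusted p = 0.00288) and at 0.59 ± 0.08 in KM (adjusted p = 3.39e-04). No PRR1 change reached 2-fold.

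OsPCL1, a MYB-like DNA-binding protein whose Arabidopsis counterpart LUX forms the evening complex with ELF3 and ELF4, had the widest span of the 7 genes, at 5.26 between its highest and lowest group mean. CCA1 came next at 5.24, and the conditions at the ends were the same for both, KM and 0h, with opposite direction. OsPCL1 signals were 11.49, 11.45 and 11.34 in KR and 12.31, 12.55 and 12.54 in KM, against 11.23, 11.45 and 11.48 in KP and 7.14, 7.31 and 7.16 at 0h. KM thus lay above KR and KP on every array, while the KR and KP arrays overlapped. The gene rose by 1.08 ± 0.09 in KM against KP (2.11-fold, adjusted p = 1.32e-04) and fell by 1.04 ± 0.09 in KR against KM (2.05-fold, adjusted p = 1.10e-04). The KR mean then differed from the KP mean by 0.04 ± 0.09 (95% interval -0.16 to 0.24, adjusted p = 0.736), which amounts to a return of 96.2% of the way. Both calls sit close to the fold threshold. The KM against KP change was just under 2-fold (0.9972) without the first KP array, and the KR against KM change was -0.99 without the third KR array or without the second KM array and -0.9982 without the third KM array. From 0h, OsPCL1 was 18.1-fold higher in KP (change 4.18 ± 0.09, adjusted p = 1.92e-08) and 38.3-fold higher in KM (change 5.26 ± 0.09, adjusted p = 4.43e-09).

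**Figure D2:**
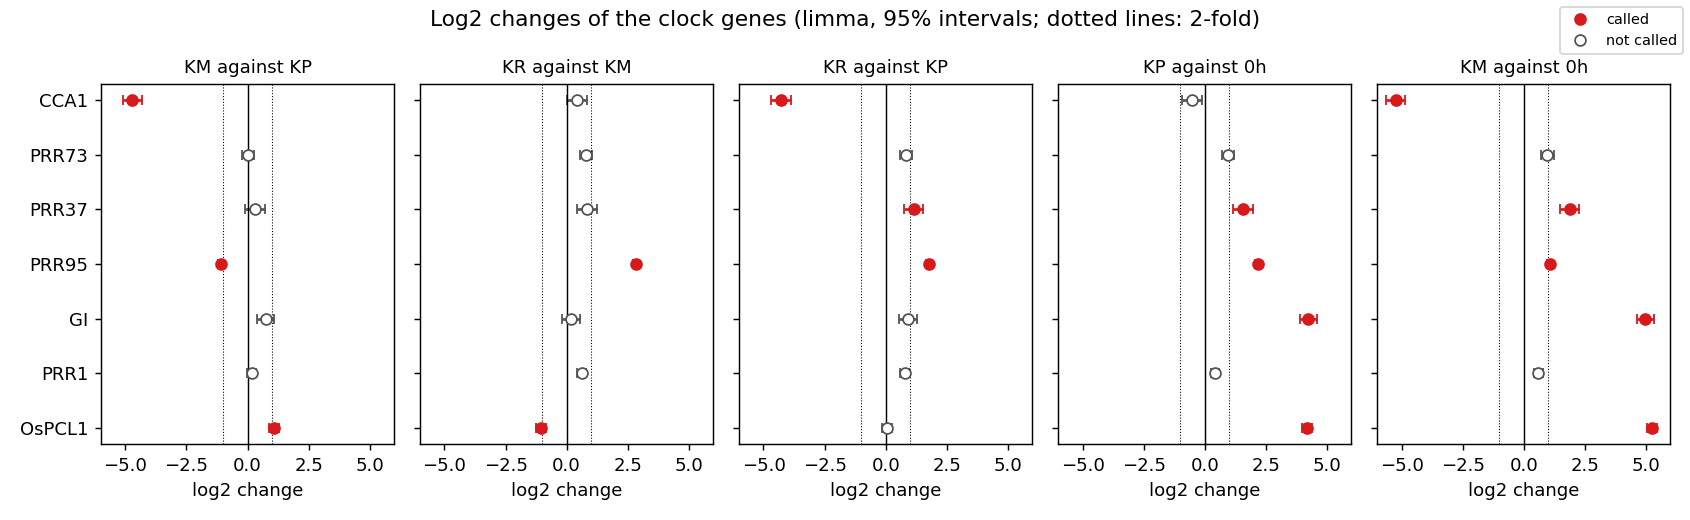
Log2 change (horizontal axes) of each clock gene in the 5 comparisons, with 95% intervals from limma and dotted lines at 2-fold. Filled points passed both thresholds and open points did not. CCA1 is called lower in the 3 comparisons of KM or KR with KP or 0h, PRR95 is called in all 5, and PRR73 and PRR1 in none.

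Counted together, KM against KP called 3 of the 7 clock genes, OsPCL1 higher and CCA1 and PRR95 lower, where 2.54% of all probe sets were called (0.954% higher and 1.59% lower). These 3 are the members held by the study's category table, which lists genes that changed in this comparison on these arrays. Their calls were thus known beforehand, and the count is not independent evidence about clock genes. The arrays of KM and KP did not overlap for 5 of the 7, against 23.6% of all probe sets. With no fold threshold GI passed as well, so that 4 of the 7 did, beside 10.4% of all probe sets. The limma adjusted p of GI ran from 5.93e-04 to 0.0688 with each array left out in turn, so its pass depends on the arrays used. The median change of the 7 was 0.17, beside -8e-04 over all probe sets. The morning gene and PRR95 were on the low side. The day genes PRR73 (0.02) and PRR37 (0.31) and the 3 evening genes all had a positive change, of which OsPCL1 alone was called. The PRR73 and PRR37 changes did not pass the test, and the dimmer PRR37 probe set was at -0.15 ± 0.22. The signs therefore give no contrast between day and evening genes.

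KR against KM called 2 of the 7, PRR95 higher and OsPCL1 lower, where 3.81% of all probe sets were called (1.75% higher and 2.06% lower). The KR and KM arrays did not overlap for any of the 7, but neither did they for 64.4% of all probe sets, and the median of all probe sets was itself shifted by 0.0442. With an adjusted p under 0.05 and no fold threshold, 5 of the 7 passed, PRR73, PRR37, PRR95 and PRR1 higher and OsPCL1 lower, beside 45.6% of all probe sets. The median change of the 7 was 0.62. KR against KP called 3 of 7, PRR37 and PRR95 higher and CCA1 lower, where 3.2% of all probe sets were called (1.15% higher and 2.06% lower). With no fold threshold it was 6 of 7, all but OsPCL1, beside 44.1% of all probe sets. The groups of this comparison did not overlap for 6 of the 7 and for 62.4% of all probe sets, and the medians were 0.82 for the 7 and 0.0472 for all.

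KP against 0h called 4 of the 7, PRR37, PRR95, GI and OsPCL1, all higher, where 11.6% of all probe sets were called (5.87% higher and 5.71% lower). The KP and 0h arrays did not overlap for any of the 7, against 37.1% of all probe sets, and with no fold threshold 6 of the 7 passed, all but CCA1, beside 26.7%. The median change was 1.57 beside -0.0084 over all. KM against 0h called 5 of the 7, the same 4 genes higher and CCA1 lower, where 12.1% of all probe sets were called (6.19% higher and 5.94% lower). Here too no member overlapped, against 33.8% of all probe sets, and all 7 passed with no fold threshold, beside 27.3%. The medians were 1.09 for the 7 and -0.009 for all. These comparisons share the 0h arrays. The difference between them is the KM against KP comparison itself, in which CCA1, PRR95 and OsPCL1 passed and PRR73, PRR37, GI and PRR1 did not.

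**Figure D3:**
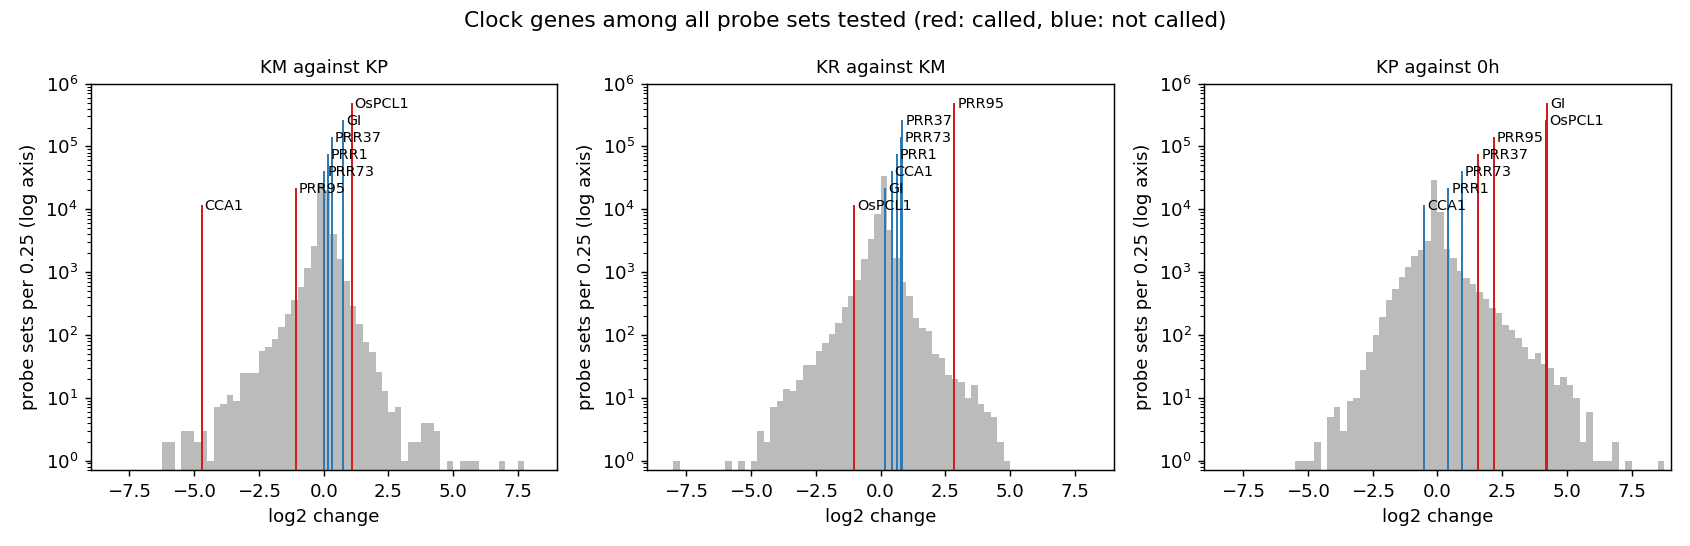
Number of probe sets per 0.25 of log2 change (grey, log axis) in KM against KP, KR against KM and KP against 0h, with the clock genes as vertical lines of arbitrary height. Red genes were called and blue genes were not. CCA1 lies in the lower tail of KM against KP, PRR95 in the upper tail of KR against KM, and GI and OsPCL1 in the upper tail of KP against 0h.

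The other probe sets of CCA1, PRR73 and PRR37 did not all repeat these values. For CCA1 the dimmer probe set read 2.50 to 2.65 on all 12 arrays, near background, and had no change to measure. For PRR73 the dimmer probe set lay close to background at 0h. It read 6.77, 6.74 and 6.55 in KR and 6.53, 6.27 and 6.79 in KM, against 6.19, 6.03 and 5.74 in KP and 3.06, 3.08 and 4.25 at 0h. Its KP against 0h change was 2.52 ± 0.30 (5.75-fold, adjusted p = 1.48e-04) and its KM against 0h change was 3.07 ± 0.30, and both were called where the brighter probe set fell short of 2-fold. Its changes in KM against KP (0.54 ± 0.30, adjusted p = 0.429) and in KR against KM (0.16 ± 0.30) were not called.

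For PRR37 the dimmer probe set read 6.39, 6.64 and 6.72 in KR and 5.78, 6.21 and 5.76 in KM, against 6.27, 6.32 and 5.62 in KP and 5.36, 5.37 and 5.83 at 0h. It kept KR highest and 0h lowest, but with smaller steps than the brighter probe set. Its KM mean was below its KP mean (-0.15 ± 0.22), not above it. None of its changes was called, including KR against KP at 0.51 ± 0.22 (adjusted p = 0.0832) and KP against 0h at 0.55 ± 0.22 (adjusted p = 0.108). The PRR37 calls therefore belong to the brighter probe set alone.

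**Figure D4:**
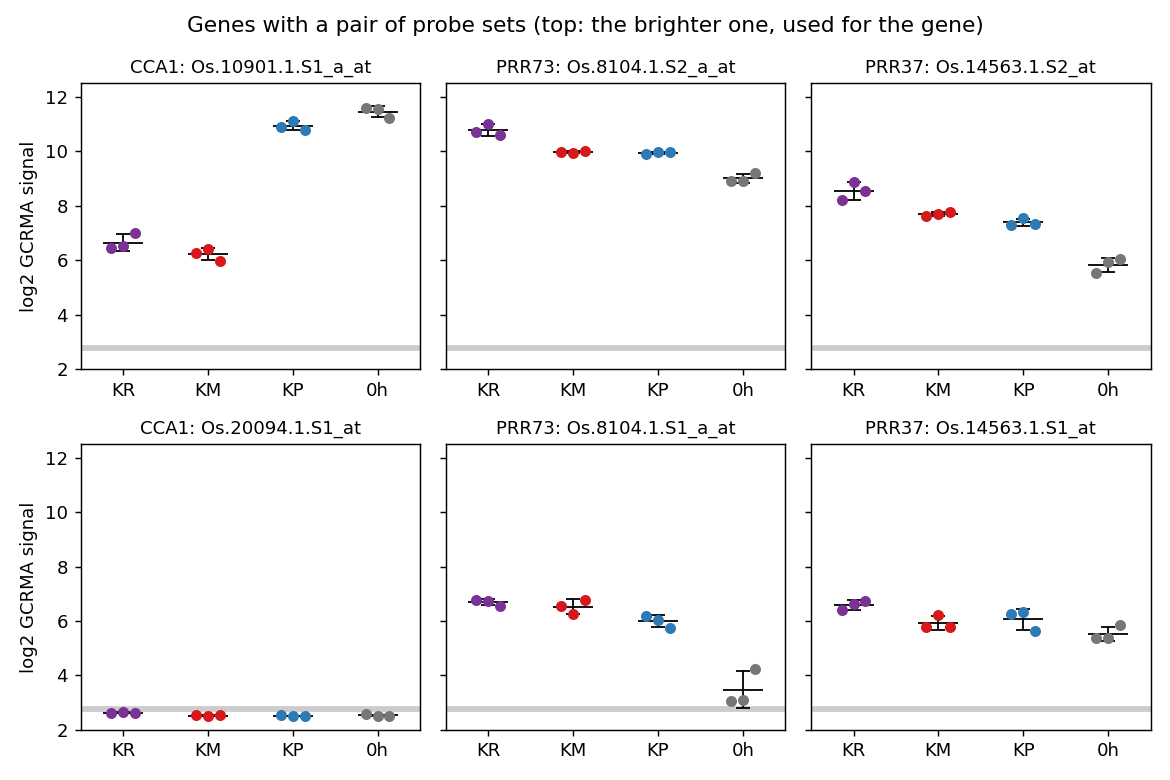
Log2 GCRMA signal (vertical axis) on each array for the genes with a pair of probe sets, the brighter one on top. Points are arrays, bars are group means, whiskers are SD and the grey band is the range of array medians. The dimmer CCA1 probe set stays at 2.50 to 2.65, the dimmer PRR73 probe set averages 3.46 at 0h, and the dimmer PRR37 probe set spans less than the brighter one.

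Besides CCA1 (LOC_Os08g06110) and OsPCL1 (LOC_Os01g74020), the Myb group of the study's category table holds 10 other loci that are not members. All were chosen by the study as changed in KM against KP on these same arrays, so neither their calls nor their direction there are independent evidence. In KM against KP 9 of the 10 were called lower and 1, LOC_Os03g20900, higher, where 1.59% and 0.954% of all probe sets were. The choice largely fixed these calls, so the shares of all probe sets are no yardstick for them. The comparisons with KR share the KM or KP arrays with that choice. In KR against KP 5 of the 10 were called lower and none higher, where 2.06% of all probe sets were called lower, and in KR against KM 4 were called higher and none lower, where 1.75% were called higher. LOC_Os02g40530, LOC_Os01g13740, LOC_Os07g30130 and LOC_Os06g24070 (GLK1, also among the green tissue genes below) were called higher in KR against KM, GLK1 by 3.77 ± 0.11 and LOC_Os02g40530 by 1.19 ± 0.21, and none of these 4 was called in KR against KP. LOC_Os02g40530 had still not reached its KP level, with means of 5.25 in KR, 4.06 in KM and 6.24 in KP. LOC_Os02g46030, LOC_Os06g51260, LOC_Os08g04840, LOC_Os02g45670 and LOC_Os01g41900 were called lower in KR against KP, as was CCA1. LOC_Os02g46030 and LOC_Os06g51260 are named beside CCA1 in the study's text and are given in full. LOC_Os02g46030 read 2.81, 2.80 and 2.76 in KR and 2.60, 2.68 and 2.71 in KM, near background, against 7.97, 8.07 and 8.19 in KP and 7.47, 7.40 and 7.28 at 0h. LOC_Os06g51260 read 3.21, 4.59 and 3.87 in KR and 3.27, 3.32 and 3.46 in KM, against 7.18, 6.96 and 8.08 in KP and 8.57, 8.64 and 7.87 at 0h. These 2 loci were low in KR and KM and high in KP and 0h, which did not hold for the whole group. LOC_Os01g41900 had the same pairs with a smaller gap, at means of 8.46 in KR and 8.35 in KM, against 9.54 in KP and 9.57 at 0h. For LOC_Os02g46030 and LOC_Os06g51260 the changes in KM against KP were -5.42 ± 0.06 and -4.06 ± 0.39. Those in KR against KP were -5.29 ± 0.06 and -3.52 ± 0.39, and all of these were called. In KR against KM neither passed the test (0.13 ± 0.06, adjusted p = 0.122, and 0.54 ± 0.39, adjusted p = 0.284). Where KR and KM are near background, the size of the change is limited by the background.

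For the members with the widest or most varied patterns, the named genes whose log2 values followed them most closely over the 12 arrays were taken among 411 candidate probe sets with group means at least 2 log2 units apart. The Pearson correlations are a description, since the arrays fall into 4 conditions that set most of each value. For CCA1 they were CAD3 (r = 0.9932), MtN3-like of the SWEET sugar transporter family (r = 0.9861) and the dehydrin Dhn1 (r = 0.9693). CAD3 averaged 7.82 in KR and 7.86 in KM, against 10.32 in KP and 10.44 at 0h, the same low and high pairs as CCA1. For PRR95 they were the chloroplast thioredoxin cdsp32 (r = 0.9788), the glutaredoxin GRXC10 (r = 0.9584) and OsRR9 (r = 0.9508), a response regulator of cytokinin signalling. The means of cdsp32 were 9.87 in KR and 7.88 in KM, against 8.997 in KP and 7.30 at 0h. Like PRR95 it was thus highest in KR, and higher in KP than in KM.

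For GI the closest were BBD2 (r = 0.9965), a cystatin, which inhibits cysteine proteases (r = 0.9954), and LIR1, a light-regulated chloroplast protein (r = 0.9952). LIR1 averaged 13.74 in KR and 13.30 in KM, against 12.79 in KP and 8.59 at 0h, and BBD2 had the same order. The cystatin averaged 12.68 in KR and 12.82 in KM, against 12.04 in KP and 7.56 at 0h, so unlike GI its mean was higher in KM than in KR. All were far lower at 0h, which sets much of these correlations. For OsPCL1 they were the copper-transporting ATPase HMA5 (r = 0.9968), the heat stress transcription factor HSFA2D (r = 0.9951) and the catalase CAT-A (r = 0.9943). CAT-A averaged 12.52 in KR and 13.44 in KM, against 12.77 in KP and 9.56 at 0h, so its highest level was in KM as for OsPCL1.

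Of the pathways that take input from the clock or give input to it, some could be read by name. Of 28 listed genes of photoperiodic flowering 10 had a probe set of their own, and of 18 photoreceptor and light signal genes 5 did. Of 24 further clock genes, among them ELF3, ELF4 and PRR59, none could be matched to a probe set of its own, and they are not analysed here. In KM against KP 1 of the 10 flowering genes was called, where 2.54% of all probe sets were. This was SE5, a heme oxygenase needed for the phytochrome chromophore, lower by 1.18 ± 0.13 (adjusted p = 5.50e-04). SE5 read 9.74, 9.75 and 9.52 in KR and 8.83, 9.17 and 9.13 in KM, against 10.14, 10.33 and 10.19 in KP and 8.27, 8.68 and 8.39 at 0h. The KM arrays of SE5 lay below all KR and KP arrays and above all 0h arrays. Neither KR against KM nor KR against KP called any of the 10 by limma or by the test of the study's methods. In each of these comparisons 6 of the 10 passed an adjusted p under 0.05 and 7 an unadjusted p under 0.05, all at less than 2-fold. Over all probe sets 45.6% and 44.1% passed the adjusted p in these 2 comparisons and 54.2% and 52.7% the unadjusted p, so these shares of the list are read as no result of its own. The median changes of the list were 0.0012, 0.21 and 0.12 in these comparisons, beside -8e-04, 0.0442 and 0.0472 over all probe sets.

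In KP against 0h and in KM against 0h 4 of the 10 flowering genes were called, where 11.6% and 12.1% of all probe sets were. MADS50 and MADS56, MADS-box regulators of flowering, were higher in KP than at 0h by 2.00 ± 0.14 and 2.20 ± 0.14, and SE5 by 1.77 ± 0.13. EHD3, a PHD-finger protein that promotes flowering, was lower by 1.26 ± 0.09. The other 6 of the 10 were not called. In KM against 0h the called genes were MADS50 (2.099 ± 0.14), MADS56 (1.99 ± 0.14) and GHD8, a subunit of the factor NF-Y (1.24 ± 0.23), all higher, and EHD3, lower by 1.01 ± 0.09. The median changes were 0.36 and 0.29, beside -0.0084 and -0.009 over all probe sets. The florigen gene HD3A, its regulator HD1, which promotes it in short days and represses it in long days, and MADS15 were near background in all 4 conditions.

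Among the photoreceptors, PHOT1A, a blue light receptor of the phototropin family, was the only one of the 5 genes called in any comparison. It read 10.70, 10.76 and 10.70 in KR and 9.81, 9.50 and 9.52 in KM, against 10.17, 10.15 and 9.99 in KP and 7.67, 7.31 and 7.40 at 0h. It was called higher in KR against KM (1.11 ± 0.11, adjusted p = 1.84e-04), in KP against 0h (2.64 ± 0.11) and in KM against 0h (2.15 ± 0.11). Of all probe sets 1.75%, 5.87% and 6.19% were called higher in these comparisons. The KM against KP change of PHOT1A, -0.49 ± 0.11 (adjusted p = 0.0185), was under 2-fold. The phytochrome gene PHYB read 8.94, 9.05 and 9.06 in KR and 9.50, 9.54 and 9.45 in KM, against 8.90, 8.85 and 8.87 in KP and 8.59, 8.63 and 8.48 at 0h. Its KM arrays lay above KR and KP, by 0.63 ± 0.04 over KP (1.54-fold, adjusted p = 5.68e-05), without reaching 2-fold. With no gene of the list called by either test, KM against KP had 3 of 5 at an unadjusted p under 0.05 and KR against KP had 5 of 5, where 19.3% and 52.7% of all probe sets were. The median changes of the 5 genes were -0.09 for KR against KM and 0.15 for KR against KP, 0.02 for KM against KP, 0.31 in KP against 0h and 0.75 in KM against 0h.

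**Figure D5:**
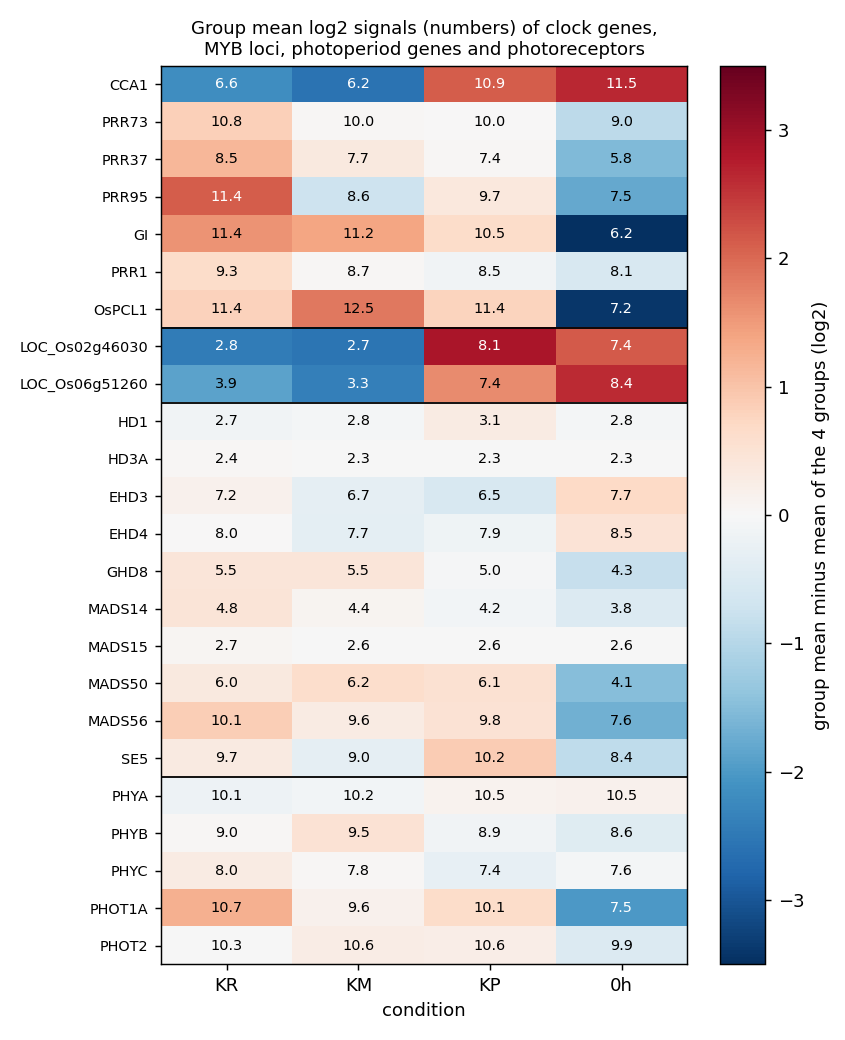
Group mean log2 signals (printed in each cell) of the clock genes, the MYB loci LOC_Os02g46030 and LOC_Os06g51260, the flowering genes and the photoreceptors, from top to bottom, in KR, KM, KP and 0h. The colour is the group mean minus the mean of the 4 groups, red for above and blue for below. CCA1 and these 2 MYB loci are blue in KR and KM, while most flowering genes and photoreceptors stay near white in KR, KM and KP.

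Markers of tissues were read beside these genes. The summed level of 5 green tissue genes (RBCS, CAB2R, GLK1, PORA and PORB) was 15.23 to 15.26 on the log2 scale in KR and 14.57 to 14.61 in KM, against 14.88 to 15.06 in KP and 14.86 to 14.92 at 0h. Signals were summed on the linear scale, so CAB2R and RBCS make up most of this sum. GLK1, PORA and PORB, which serve chloroplast and chlorophyll formation, were called lower in KM against KP, while KR against KM called all 3 higher, and GLK1 fell by 3.16 ± 0.11 in KM against KP. CAB2R, an antenna protein, was at -0.76 ± 0.03 in KM against KP by its brighter probe set (adjusted p = 3.35e-06), under 2-fold. Its dimmer probe set was called lower in KM against KP (-1.31 ± 0.08, limma adjusted p = 2.98e-05). That probe set was also called higher in KR against KM (1.95 ± 0.08, limma adjusted p = 2.98e-06). RBCS, the small Rubisco subunit, differed from this. It was at 0.16 ± 0.08 in KM against KP (adjusted p = 0.385) and in KM against 0h at 0.35 ± 0.08 (adjusted p = 0.0111). The green sum was thus highest in KR and lowest in KM, as was PRR95 among KR, KM and KP, while at 0h the sum was close to KP and PRR95 was not. The summed level of 6 genes listed here as root markers was 12.37 to 12.46 in KR and 11.50 to 11.78 in KM, against 11.63 to 12.46 in KP and 9.68 to 9.74 at 0h. Most of it came from LSI1 in KR, KM and KP. LSI1 and LSI2, silicon transporters of the root, were called higher in KP and in KM against 0h. RAI1 was called higher in KR against KM (1.08 ± 0.16, adjusted p = 0.00104) and was at -0.74 ± 0.16 in KM against 0h, under 2-fold, with no call in KP against 0h. Whether RAI1 marks roots was not checked here. YSL16 was not called in any comparison, at -0.62 ± 0.14 in KR against KM and -0.08 ± 0.14 in KP against 0h. NRT2.3 and IRT1 of this list were near background. That of 3 genes of dividing cells (PCNA, CYCB2-2 and CDKB2-1) was 10.39 to 10.46 in KR and 9.57 to 9.69 in KM, against 9.53 to 9.9996 in KP and 11.23 to 11.30 at 0h, and all 3 were called lower in KP and in KM against 0h. Of all probe sets, 1.59% were called lower in KM against KP and 1.75% higher in KR against KM. In KP against 0h 5.87% were called higher and 5.71% lower, and in KM against 0h 6.19% and 5.94%. The part of these tissue differences in the changes of the clock genes was not tested.

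Seed storage and amylase genes, read because seeds were removed before extraction, gave sums of 6.89 to 7.004 in KR, 6.95 to 7.28 in KM, 7.003 to 7.11 in KP and 6.20 to 6.28 at 0h for 3 storage genes, and of 3.62 to 5.51 over the 12 arrays for the amylases RAMY3D and RAMY3E. None of these 5 genes was called by either test in any comparison, and GLUA2, at 6.02 to 6.98 by group, was the only one with every group mean clear of background. The study's category table holds 3 other alpha-amylase loci, LOC_Os02g52700, LOC_Os01g25510 and LOC_Os09g28430, which it chose on these arrays and which behaved otherwise. They averaged 2.73, 2.53 and 2.999 in KR and 6.51, 4.03 and 8.46 in KM, against 2.43, 2.37 and 2.85 in KP and 2.44, 2.40 and 2.34 at 0h. All 3 were called higher in KM against KP, by 4.09 ± 0.23, 1.66 ± 0.06 and 5.62 ± 0.47, and lower in KR against KM, so they were high on the arrays where OsPCL1 was highest. Outside KM they were near background, except that LOC_Os09g28430 read 3.52 on the first KR array and 4.04 on the first KP array, and their part in the changes of the clock genes was not tested. The 3 reference genes ACT1, UBQ5 and GAPC1 summed to 13.68 to 13.77 in KR and 13.75 to 13.91 in KM, against 13.79 to 13.95 in KP and 13.83 to 13.99 at 0h, and none was called by either test, with up to 3 of the 3 at an unadjusted p under 0.05.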

How the data were processed

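Total RNA of whole seedlings without seeds was labelled with biotin and hybridised to 12 Affymetrix rice arrays, 3 each for KR, KM, KP and 0h, and groups were taken from titles and source names. The intensity values deposited by the authors are GCRMA signals on a linear scale, made in ArrayAssist from array files that, per the submitters' processing notes, came from GCOS 1.2.1. Values under 1 were to be set to 1 before the log2 step, but none occurred, and no further normalisation was applied. The 123 control probe sets among 57381 were set aside, and limma 3.58.1 in R 4.3.3 was run on the remaining 57258, with 1 mean per group over all 12 arrays and no block. The study's methods give a Student test with the same adjustment and fold threshold, which was run as an alternative and is called the methods' t-test. KM and KP were each compared with 0h, KM with KP, and KR with KM and with KP, which makes 5 comparisons. KR against 0h was not run. The fit was tested on simulated data with changes of known size.

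The members and lists were chosen with earlier results of these data known, and no list was tested as a set. Every probe set of the members was reported, list genes called in any comparison were named, and the genes nearest in pattern were the 3 named probe sets with the highest Pearson correlation to CCA1, PRR95, GI and OsPCL1. PHYB, PHOT2, PHYA, PHYC, the flowering genes near background, the markers not called, the further loci of the Myb group and the alpha-amylase loci of the study's table were named after their values were seen. Probe sets that name several genes were left out, and names ending in x_at can cross-hybridise with related genes. The number of arrays limits the precision. Gene sequences and coordinates are not given, since no sequence table or genome of the array's design was used here. Scans and PCR data of the study were not used. Alternatives covered the test, normalisation, arrays in the fit, spread model, a filter on dim probe sets, a pseudocount of 16, the fold threshold, a replicate block, each array left out and each probe set counted.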

Additional observations from a re-analysis of the deposited data

How the results depend on the processing

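The numbers of clock genes called were 3 for KM against KP, 2 when KR was set against KM and 3 when it was set against KP, 4 in KP against 0h and 5 in KM against 0h. These counts were the same under the methods' t-test, quantile normalisation, equal array medians, a fit to the 6 arrays compared, limma with a trend, the filter on dim probe sets and log2(signal + 16). With no fold threshold and with a 1.5-fold threshold, KR against KM called 5 (4 higher) and KR against KP called 6 (5 higher). With each probe set counted, 3, 2, 3, 5 and 6 of 10 were called. With each array left out in turn, the counts ran from 2 to 3, 1 to 3, 2 to 3, 4 to 5 and 5 to 6 in that order of comparisons. OsPCL1 lost its call in KR against KM without KR replicate 3, KM replicate 2 or KM replicate 3, which left 1 call. Over 22 settings, 737 of 770 values of single genes kept their direction and side of the thresholds, 5 lost a call, 24 gained one and 4 changed sign. The sign changes were in changes near 0 that were never called: OsPCL1 in KR against KP at -0.05 with quantile normalisation, -0.063 with equal medians and -0.0383 without KP replicate 1 (-0.0383 to 0.0884 with each array left out), and PRR73 in KM against KP at -0.0018 without KP replicate 1 (-0.0018 to 0.0478). The causes of these shifts were not tested.

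The labels number the replicates 1 to 3 in each group. With the replicate number as a block, the pairing left the counts of clock genes called at 3, 2, 3, 4 and 5, and no call changed. Arrays of the same number deviated from their group means with correlations of -0.144 to 0.154 (18 pairs of arrays), those of different numbers with -0.272 to 0.232 (36 pairs), and 5 of 12 arrays correlated best with their own number. With 3 arrays a group these correlations cannot show whether arrays of the same number shared a culture, and the labels do not say.

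Over all probe sets, KM against KP called 1457, against 722 by the methods' t-test, 3364 at 1.5-fold and 5979 with no fold threshold. KR against KM called 2183, against 1419 on log2(signal + 16), 5066 at 1.5-fold and 26105 with no fold threshold. KR against KP called 1834, against 4694 and 25253 with those fold settings, KP against 0h called 6632, against 11367 and 15284, and KM against 0h called 6942, against 11592 and 15652. For probe sets near background, such as the second CCA1 probe set and LOC_Os02g46030 in KR and KM, the signal limits the size of a change that can be read.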

Other observations

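The study's category table, whose loci were chosen by the study on these same arrays, also holds light-related loci that were picked here after their values were seen. LOC_Os02g39710, which the table annotates as a zinc finger protein with CCT and B-box domains, read 9.71, 9.97 and 9.91 in KR and 7.56, 7.63 and 7.30 in KM, against 10.20, 10.07 and 10.24 in KP and 10.38, 10.29 and 9.97 at 0h. The KM against KP change was -2.68 ± 0.12 and the KR against KM change was 2.36 ± 0.12, both called, and KR against KP was not called (-0.31 ± 0.12, limma adjusted p = 0.0682). Unlike CCA1, this gene was thus close to its KP level after 6 h of resupply. LOC_Os09g06464, with the same annotation, averaged 3.41 in KR and 2.21 in KM, near background, against 5.53 in KP and 3.58 at 0h, with changes of -3.32 ± 0.11 in KM against KP, 1.199 ± 0.11 in KR against KM and -2.12 ± 0.11 in KR against KP, all called. LOC_Os03g56950, annotated as a putative phytochrome-interacting factor 4, averaged 6.91 in KR and 5.07 in KM, against 6.60 in KP and 5.88 at 0h. It was called lower in KM against KP (-1.53 ± 0.17) and higher in KR against KM (1.85 ± 0.17), and KR against KP was not called (0.32 ± 0.17, adjusted p = 0.159).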
